A study of Mus musculus with 12 samples.

Results

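The cytosolic ribosomal protein genes encode the proteins of the large (Rpl) and small (Rps) ribosomal subunit. They were taken from a table of FPKM (fragments scaled to the length of the gene model and to the library) of mouse kidney as the protein-coding rows whose symbol is Rpl or Rps with a number, or Rplp0, Rplp1, Rplp2 or Rpsa. Rows also had to average 1 FPKM or more across all 12 libraries. This left 76 members, 45 of the large and 31 of the small subunit, among 56748 rows, of which 12868 reached that mean and were tested. A total of 77 protein-coding rows had a matching symbol. Rps10 was just inside the limit with a mean of 1.12 FPKM, and Rpl24 was just outside it with 0.683 FPKM and was not tested.

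The libraries came from kidneys of male mice aged 8 to 12 weeks in 4 groups of 3. WT sham and WT IR are wild type, and cKO sham and cKO IR carry a Krt20 deletion restricted to renal proximal tubular cells. IR stands for ischemia/reperfusion: both renal pedicles were held closed for 30 min, and tissue was taken 24 h after release. Sham mice had the surgery without the clamp. The labels name neither the Cre driver nor a Cre control, and they do not say that each library is a separate animal, so p-values reflect only how far these libraries spread. They name Krt20 as the gene deleted, and Krt20 had 1, 0 and 4 reads in WT sham and 1, 0 and 0 in cKO sham. After IR it had 2751, 1844 and 1714 reads in WT and 869, 1061 and 1399 in cKO, so every cKO IR library held Krt20 reads. In FPKM, Krt20 was 84.0, 64.9 and 59.9 in WT IR and 28.2, 35.6 and 47.0 in cKO IR. The groups did not overlap, but the log2 difference of −0.91 (SE 0.17) missed the threshold, with a Benjamini-Hochberg adjusted p of 0.132 in limma. FPKM are given per whole gene, so reads from deleted and kept exons, and from different cells, cannot be told apart.

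Each ribosome holds a set of these proteins with the ribosomal RNAs, so their messages are abundant in most cells and their amounts are normally matched. Many of the messages begin with a C followed by a run of pyrimidines, the 5′ terminal oligopyrimidine or TOP sequence, through which mTOR and Larp1 control their translation. Introns of many of these genes also carry snoRNAs, which guide modification of ribosomal RNA. Free Rpl5 and Rpl11 with 5S ribosomal RNA bind Mdm2 and thereby stabilise p53.

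The bases around the start of 8 members show annotated starts with and without this feature at the exact base. They are from RefSeq promoters of GRCm38.p6, 10 bases before and 20 bases from the annotated start, 5′ to 3′ on the transcribed strand. Capitals mark a C at the start and the pyrimidines that follow it without a break. The first 6 have at least 4 pyrimidines after that C. Rpl12 and Rpsa have no C at the annotated base, but Rpl12 has a C with such a run shortly after it.
Rpl15, chr14:18270967-18270996, minus strand: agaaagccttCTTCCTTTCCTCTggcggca
Rpl35, chr2:39005112-39005141, minus strand: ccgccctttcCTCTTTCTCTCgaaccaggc
Rps6, chr4:86857348-86857377, minus strand: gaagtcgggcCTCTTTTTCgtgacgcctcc
Rpl38, chr11:114668570-114668599, plus strand: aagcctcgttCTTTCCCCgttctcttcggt
Rps27, chr3:90213629-90213658, minus strand: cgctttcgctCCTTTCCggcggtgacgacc
Rplp2, chr7:141447641-141447670, plus strand: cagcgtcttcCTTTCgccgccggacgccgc
Rpl12, chr2:32961702-32961731, plus strand: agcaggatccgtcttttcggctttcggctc
Rpsa, chr9:120127756-120127785, plus strand: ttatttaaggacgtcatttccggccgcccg

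Of the 56 members found in that table, 13 (23.2%) had such a run at the annotated start, against 813 of 27025 genes (3.01%), and 20 members were not matched. The search used only the transcribed strand and the exact annotated base, so a start annotated a few bases away gives no match. None of 69 mitochondrial ribosomal protein genes had the run, and 4 of 27 (14.8%) listed translation factors and other TOP messages had it. Among the 13 members with a run, the median change after IR on the log2 scale was 0.58 in WT and 0.81 in cKO. Among the 43 without one it was 0.61 and 0.85. Among the 20 members not matched it was 0.53 and 0.80. The members matched at the exact base did not have the larger median. Members with a run a few bases away, such as Rpl12, count as without one. These medians therefore do not compare members with and without a TOP sequence, and a match describes letters, not a site.

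The 12 libraries held 13187531 to 15962303 reads, recovered from the FPKM steps. Mitochondrial genes took 9.82% to 10.4% of reads in WT and 8.11% to 8.47% in cKO after sham surgery, and 7.94% to 9.07% and 7.29% to 8.78% after IR. The extraction text of the labels mentions another tissue, retina, but 4 of 9 retina markers had no read in any library and the highest single value of the others was 0.449 FPKM. All 7 proximal tubule markers were expressed, with sums of 23198 to 25298 FPKM in WT sham.

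Ribosomal protein messages took a larger part of the kidney RNA after IR in both genotypes. The 76 members held 1.03%, 1.22% and 1.05% of the reads in WT sham and 1.89%, 1.62% and 1.94% in WT IR. In cKO sham they held 1.02%, 1.02% and 1.10%, and in cKO IR 2.17%, 1.84% and 2.01%. Every IR library lay above every sham library, as the plot of read shares shows, whereas the sham groups overlapped, as did the IR groups. In a bulk sample, fewer cells of a type and less RNA per cell cannot be told apart, and neither can more ribosomal protein RNA per cell and a different mix of cells.

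**Figure D1:**
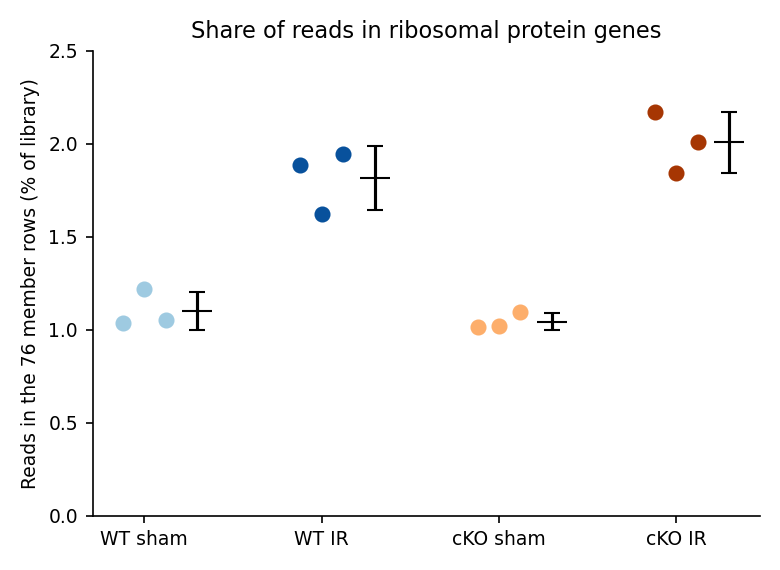
Share of each library's reads in the 76 ribosomal protein genes, in percent on the vertical axis, by group. Points are libraries and bars are the mean ± SD (n = 3): after sham 1.10% ± 0.101 in WT and 1.04% ± 0.0464 in cKO, and after IR 1.82% ± 0.171 and 2.01% ± 0.164.

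Both subunits shared in the difference. Summed FPKM of large over small subunit genes averaged 1.43 in WT and 1.47 in cKO after sham surgery, and 1.5 and 1.51 after IR. In WT the libraries did not overlap, at 1.42 to 1.44 after sham and 1.48 to 1.51 after IR. In cKO they overlapped, at 1.43 to 1.51 and 1.39 to 1.58. Pseudogene rows here are rows annotated as pseudogenes whose symbol is that of a member followed by -ps. Copies under other symbols were not counted. With the reads of pseudogene rows added, the same averages were 1.45 and 1.45, then 1.48 and 1.45. The WT groups again did not overlap, at 1.44 to 1.45 after sham and 1.47 to 1.49 after IR. Levels per length differed far more between genes than between groups. The highest mean over the 12 libraries was that of Rplp1, a stalk protein, at 602 FPKM, followed by Rps3a1 at 400, Rplp0 at 348, Rpl4 at 291 and Rps15 at 288. The lowest were Rps10 at 1.12, Rpl21 at 6.64, Rpl13a at 8.02, Rpl35a at 15.1 and Rps15a at 18.2 FPKM. FPKM divides by a gene model of 383 to 6270 bases, which can be longer than the message, and several of the low rows shared reads with pseudogene copies.

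In wild-type kidney, 62 of the 76 members rose after IR and none fell, where 22.6% of all tested genes rose and 19.5% fell (limma on log2(FPKM + 1), Benjamini-Hochberg adjusted p under 0.05). The members' median difference was 0.58 on the log2 scale, or 1.5-fold, against 0.01 for all tested genes. Of the large subunit genes, 40 of 45 rose, with a median of 0.61, and of the small subunit genes 22 of 31, with a median of 0.55. Every WT IR library exceeded every WT sham library for 66 members, a separation in that direction found for 28% of tested genes, and 1 member, Rpl35a, was separated in the opposite direction, as 24.9% of tested genes were. Scaled by plain read totals in place of the deposited scaling, the median of all tested genes moved up by 0.13, and the members' median was 0.73. By plain totals 68 members rose, while 32.3% of tested genes rose and 14.3% fell.

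The knockout gave the same kind of difference. After IR, 68 of 76 members rose in cKO kidney and none fell, beside 27.8% and 23.1% of tested genes. The median was 0.83, or 1.78-fold, against 0.02 for all tested genes. Among those that rose were 43 of 45 large and 25 of 31 small subunit genes. A rise of over 1 on the log2 scale was found for 20 members and for 763 of the 12868 tested genes. Every cKO IR library exceeded every cKO sham library for 71 members, against 32.6% of tested genes, and lay below for none, against 27.8%. Called in both genotypes were 62 members, and in cKO alone 6, among them Rpl17, Rpl36, Rpl37a, Rps27a and Rps28. Called in neither were Rpl21, Rpl35a, Rps10, Rps18, Rps2, Rps21, Rps27 and Rps29. The change after IR passing in 1 genotype alone is not a difference between genotypes, which is tested further on.

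**Figure D2:**
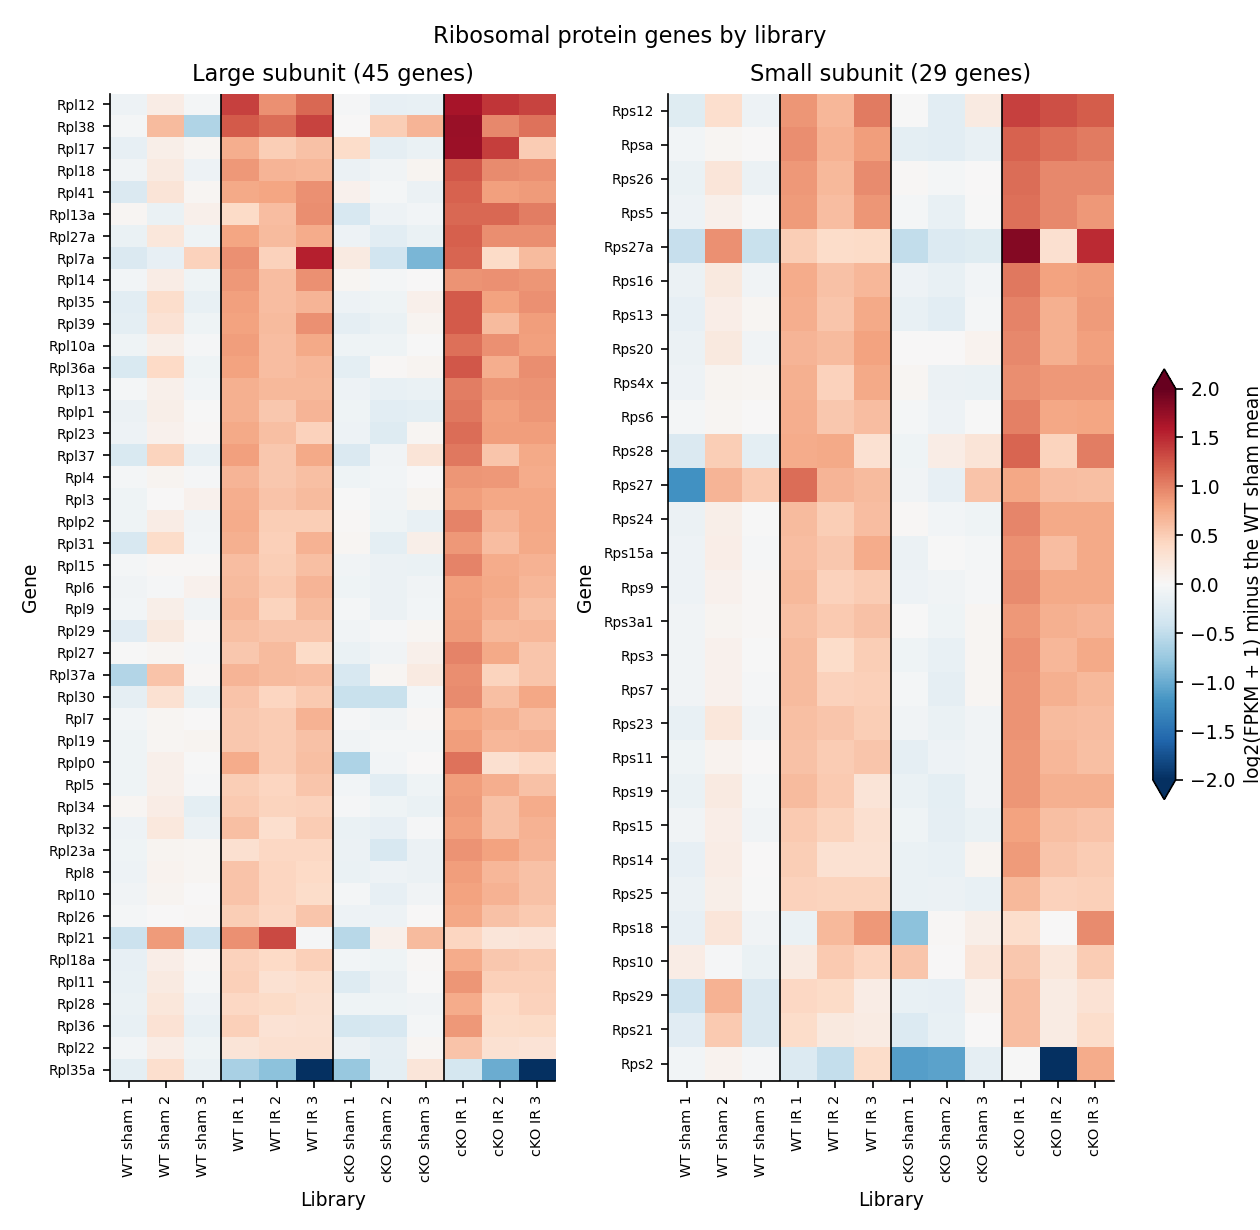
Each row is 1 of 74 of the 76 members, split by subunit, and each column a library. Colour gives log2(FPKM + 1) minus the WT sham mean of that gene, and values beyond 2 or −2 have the end colours. Most rows are near 0 in the sham columns and above 0 in all IR columns. Rpl35a is below 0 in all IR columns, and Rps2 is below 0 in libraries of WT IR and of both cKO groups.

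The stalk of the large subunit, which recruits the elongation factors, was represented by Rplp0, Rplp1 and Rplp2. Rplp1 (ENSMUSG00000007892) had 415, 489 and 448 FPKM in WT sham and 733, 654 and 720 in WT IR, then 425, 387 and 394 in cKO sham and 935, 796 and 832 in cKO IR. All IR libraries were above all sham libraries, and the cKO IR libraries were above the WT IR libraries. Its log2 difference after IR was 0.64 (SE 0.10, adjusted p = 0.00093) in WT and 1.08 (SE 0.10, adjusted p = 2.43e-05) in cKO. Rplp2 rose by 0.58 in WT and 0.88 in cKO (adjusted p = 0.0021 and 0.000107). Rplp0, the scaffold of the stalk, varied more: 182, 269 and 281 FPKM in cKO sham and 598, 348 and 373 in cKO IR. It still rose in both genotypes, by 0.62 (SE 0.21, adjusted p = 0.0374) and 0.83 (SE 0.21, adjusted p = 0.00762).

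Rpl12 (ENSMUSG00000038900), which sits at the base of the stalk, was among the members with the largest difference in each genotype. It had 25.6, 31.0 and 26.8 FPKM in WT sham and 73.4, 53.1 and 62.8 in WT IR. The cKO sham libraries had 27.2, 24.7 and 25 FPKM and the cKO IR libraries 89.2, 76.6 and 72.0. The IR libraries of each genotype were all above its sham libraries, by 1.15 (SE 0.13, adjusted p = 0.000102) in WT and 1.59 (SE 0.13, adjusted p = 8.57e-06) in cKO on the log2 scale. None of the pseudogene rows named after Rpl12 held reads, and copies under other symbols were not counted.

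Among the other large subunit members, Rpl3, near the peptidyl transferase centre, averaged 97.9 ± 5.70 FPKM in WT sham and 153 ± 8.44 in WT IR, and 97.4 ± 4.46 and 170 ± 3.96 in the cKO groups (SD, n = 3). Its differences were 0.64 (adjusted p = 0.000176) and 0.80 (adjusted p = 2.34e-05). Rpl10, which joins late and is needed for the subunits to pair, rose by 0.46 and 0.79 (adjusted p = 0.0025 and 6.16e-05). Rpl5 and Rpl11, the partners of 5S ribosomal RNA, rose by 0.49 and 0.38 in WT (adjusted p = 0.00141 and 0.0357). In cKO they rose by 0.83 and 0.74 (adjusted p = 3.91e-05 and 0.00085).

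Rpl13a, known also for a role in translational silencing outside the ribosome, had 5.61, 4.81 and 5.85 FPKM in WT sham and 7.32, 8.79 and 11.2 in WT IR. In cKO it had 4.12, 4.95 and 5.16 FPKM after sham and 13.3, 13.2 and 12.0 after IR. Sham and IR libraries did not overlap in either genotype, with differences of 0.64 (SE 0.13, adjusted p = 0.00318) and 1.27 (SE 0.13, adjusted p = 3.47e-05). Rpl22, which mice can lack because its paralog Rpl22l1 can replace it, had the smallest called difference of the panel, 0.30 in WT (adjusted p = 0.0319) and 0.48 in cKO (adjusted p = 0.00247). Rpl38, known for its part in axial patterning, varied among sham libraries, with 24.0, 38.7 and 16 FPKM in WT sham against 59.0, 54.4 and 64.2 in WT IR. Its difference in WT was 1.23 (SE 0.30, adjusted p = 0.0074) and in cKO 0.87 (SE 0.30, adjusted p = 0.0313). Rpl7a, the host of several snoRNAs, was also variable, with 51.9, 37.4 and 81.3 FPKM in WT IR and 21.9, 23.9 and 37.4 in WT sham, so that its groups touched at 37.4 to 3 digits (0.98, SE 0.35, adjusted p = 0.0416). Pseudogene rows held 9.24% to 37.3% of the reads of Rpl7a and its copies, depending on the library.

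In the small subunit, Rpsa (ENSMUSG00000032518), also known as the laminin receptor, was tight within groups. It had 103, 109 and 108 FPKM in WT sham and 205, 174 and 192 in WT IR. In cKO it had 93.2, 92.5 and 96.6 after sham and 244, 232 and 220 after IR. No group overlapped another, and the differences after IR were 0.83 (SE 0.08, adjusted p = 5.62e-05) and 1.29 (SE 0.08, adjusted p = 2.95e-06). Rps6, the substrate of the S6 kinases, had 149, 158 and 155 FPKM in WT sham and 256, 224 and 237 in WT IR, and in cKO 150, 144 and 153 after sham and 311, 263 and 266 after IR. Its IR libraries were above its sham libraries in both genotypes, by 0.63 (SE 0.09, adjusted p = 0.000455) and 0.90 (SE 0.09, adjusted p = 2.93e-05).

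Rps3, at the entry of the message channel, rose by 0.50 and 0.85 (adjusted p = 0.00235 and 6.37e-05), and the X-linked Rps4x by 0.65 and 0.95 (adjusted p = 0.000648 and 3.54e-05). Rps19, the first gene tied to Diamond-Blackfan anemia, rose by 0.47 and 0.90 (adjusted p = 0.00729 and 0.000111). Rps12, a small subunit member with many pseudogenes, rose by 0.86 and 1.31 (adjusted p = 0.00167 and 8.65e-05). Rps27a, translated as a fusion with ubiquitin, had 15.0, 17.5 and 17.9 FPKM in cKO sham and 79.2, 26.9 and 62.0 in cKO IR, a difference of 1.55 (SE 0.40, adjusted p = 0.00842). In WT the value of 41.1 FPKM in 1 sham library lay above all 3 IR libraries, at 28.0 to 30.5, and the difference of 0.42 did not pass (adjusted p = 0.438). Rps27 and Rps29, small zinc-binding members, did not pass in either genotype. For Rps27 the differences were 0.81 and 0.55 (SE 0.41, adjusted p = 0.14 and 0.291), with 10.4, 40.9 and 36.9 FPKM in WT sham, and for Rps29 they were 0.32 and 0.43 (SE 0.25, adjusted p = 0.331 and 0.168).

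**Figure D3:**
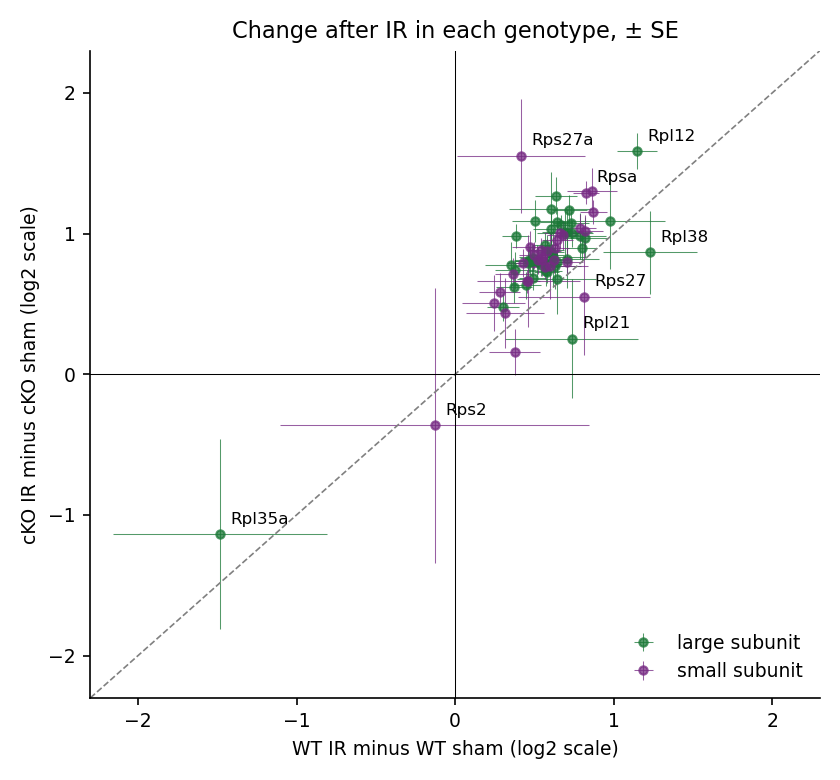
Log2 difference between IR and sham in WT (horizontal) and cKO (vertical) for the 76 members, with bars of ± 1 SE and the dashed line of equal differences. Most points cluster between 0.24 and 1.59 on both axes and above the dashed line (71 of 76), while Rpl35a and Rps2 are negative on both axes and have wide bars.

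Rpl35a, a Diamond-Blackfan anemia gene, was the member furthest from the rest. It had 18.9, 27.8 and 19.9 FPKM in WT sham and 13.5, 12.0 and 1.91 in WT IR, so that all WT IR libraries were lower. In cKO it had 12.6, 18.9 and 25.9 FPKM after sham and 16.9, 10.5 and 2.31 after IR, and these groups overlapped. Neither difference passed: −1.48 in WT (SE 0.67, adjusted p = 0.101) and −1.14 in cKO (SE 0.67, adjusted p = 0.183). Without the cKO IR replicate 3 library in the fit, which changes the shared estimate of spread, Rpl35a was called lower in WT. Its pseudogene rows held 3.73% to 62.3% of the reads of the gene and its copies, depending on the library. With those reads added, the differences were −1.12 and −0.70 (adjusted p = 0.0704 and 0.226).

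Compared with the typical member, few genes stood apart. When each library was centred on the median of the 76 members, 4 members were higher after IR in WT, among them Rps26 (0.28, adjusted p = 0.0489), Rpl12 (0.61, adjusted p = 0.00108) and Rpl38 (0.69, adjusted p = 0.0193). Only Rpl35a was lower (−2.02, SE 0.60, adjusted p = 0.0102). Under this centring 3.85% of tested genes were higher and 61.4% lower, since most genes did not follow the members. In cKO, 8 members were higher than the typical member, beside 3.54% of tested genes. They included Rpl12 (0.76, adjusted p = 0.000103), Rpsa (0.46), Rps12 (0.48), Rps27a (0.73), Rpl13a (0.44), Rpl18 and Rpl27a. The 3 lower members, beside 78.8% of tested genes, were Rpl35a (−1.96, adjusted p = 0.00823), Rps10 (−0.67, adjusted p = 0.00647) and Rpl22 (−0.35, adjusted p = 0.00752). Pseudogene rows held 93.9% of the reads of Rps10 and its copies, 43.7% for Rps12, 29.4% for Rpl38 and 18.9% for Rps27a. For Rpl35a they held 3.73% to 62.3%, depending on the library. The places of these members are therefore uncertain, and centring with those reads added was not run. Rpl12 stood above, and Rpl35a below, in both genotypes, though the place of Rpl35a is among the uncertain ones. The genotypes share no library, but both comparisons came from 1 fit with a shared estimate of spread. The centring is set by the members themselves, so these values describe the spread within the family.

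The spread between libraries of 1 group was small for most members. The coefficient of variation of FPKM within groups was pooled as the root mean square over the 4 groups, which weights the most variable group. It had a median of 9.39% and exceeded 30% for 6 members: Rpl35a (54.6%), Rps2 (51.6%), Rpl21 (47.2%), Rps27a (39.4%), Rpl7a (34.9%) and Rps27 (33.8%). For Rps2, a core small subunit protein, the split of reads between the gene and its pseudogenes differed from library to library. Rps2 had 6761, 7848 and 6795 reads in WT sham and 7254, 5504 and 9957 in WT IR. In cKO it had 3644, 3584 and 6643 after sham and 8248, 415 and 13441 after IR. Rps2-ps10 had 274, 163 and 279 reads in WT sham and 3767, 2856 and 204 in WT IR. In the cKO libraries it had 2278, 2023 and 169 after sham and 4269, 7111 and 355 after IR. In WT IR, cKO sham and cKO IR, replicate 3 had the most reads in Rps2 and the fewest in Rps2-ps10. The pseudogene rows together held 4.98% to 96.3% of the sum.

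**Figure D4:**
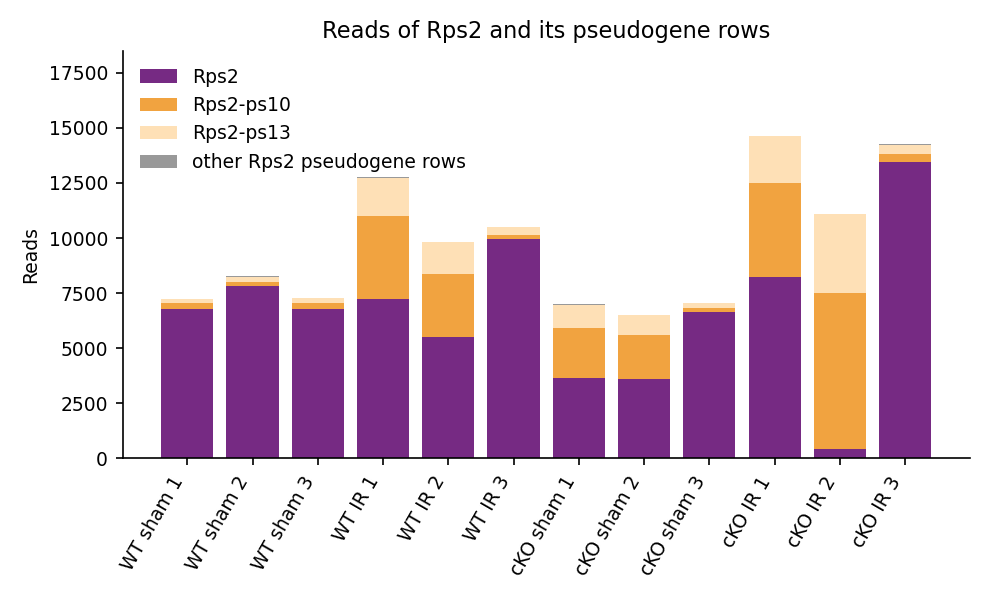
Reads per library of Rps2 and of its pseudogene rows, stacked from 0. In cKO IR 2, Rps2 itself has 415 reads and Rps2-ps10 7111, and the full bars of the IR libraries are all higher than those of the sham libraries.

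Rps2 itself gave differences of −0.13 in WT and −0.36 in cKO (SE 0.97, adjusted p = 0.931 and 0.776). With its pseudogene reads added, at the length of Rps2, the gene had 292, 312 and 300 FPKM in WT sham and 410, 364 and 387 in WT IR. In cKO these sums were 252, 245 and 265 FPKM after sham and 501, 392 and 504 after IR. All IR libraries then exceeded all sham libraries, and Rps2 rose by 0.36 (adjusted p = 0.022) and 0.86 (adjusted p = 0.000113). Adding pseudogene reads to every member gave 66 members called higher in WT and 71 in cKO, and none lower. The deposited values do not show from which copy a read came.

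Pseudogene rows also held a large part of the reads of Rps10 (93.9%), Rpl17 (72.6%), Rpl21 (63.6%), Rps12 (43.7%), Rpl38 (29.4%), Rps27a (18.9%) and Rpl7a (18.3%), so the levels of these members are uncertain. The level of Rpl35a, with a share of 12.4% that varied widely by library, is uncertain as well. Copies under symbols other than -ps were not counted. For 55 members the pseudogene rows named after them held under 5% of the reads, which does not show that they share none. Of these, 47 rose in WT (median 0.58) and 51 in cKO (median 0.83), and none fell. The smallest difference among the 55 was 0.24 in WT and 0.43 in cKO.

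In the sham kidneys no member was called between the genotypes by limma on log2(FPKM + 1) or by limma voom on recovered reads, and 1 member, Rpsa, had an unadjusted p under 0.05, as did 11.4% of all tested genes. Among all tested genes 0.847% were higher and 0.256% lower in cKO sham, or 0.948% and 0.295% by voom. The members' median difference, cKO minus WT, was −0.07, and 69 of 76 were negative, where 50.0% of tested genes were. That median was −0.15 without WT sham replicate 1 and −0.00705 without WT sham replicate 2, so single WT sham libraries set its size. For 8 members every cKO sham library was below every WT sham library, where 12% of tested genes were, and for none was it the opposite, where 13% were. Rpsa had the smallest p (−0.18, SE 0.08, adjusted p = 0.427), with sham means of 107 ± 3.19 FPKM in WT and 94.1 ± 2.17 in cKO (SD, n = 3). Rpl23a, near the exit of the peptide tunnel, followed (−0.19, SE 0.09, adjusted p = 0.457), and Rpl30 came next (−0.31, SE 0.15, adjusted p = 0.479).

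After IR, most members were somewhat higher in cKO than in WT, but none passed. The median difference was 0.20 and 70 of 76 were positive, beside a median of 0.03 and 56.5% positive for all tested genes. Without cKO IR replicate 1 the members' median was 0.13. For 35 members every cKO IR library was above every WT IR library, where 10.2% of tested genes were. For no member was it the opposite, against 5.84% of tested genes. The limma test called 0 members and 0% of all tested genes in either direction, voom called no member beside 0% of tested genes higher and 0.00777% lower, and 30 members had an unadjusted p under 0.05, as did 15.0% of tested genes. Rpl23a (ENSMUSG00000058546) had 105, 112 and 112 FPKM in WT IR and 157, 147 and 135 in cKO IR, without overlap (0.41, SE 0.09, adjusted p = 0.145). Rpl13a differed by 0.47 (SE 0.13, adjusted p = 0.179) and Rpl13 by 0.27 (SE 0.07, adjusted p = 0.18), also without overlap. Rplp1 differed by 0.28 (adjusted p = 0.254), Rpsa by 0.28 (adjusted p = 0.185) and Rplp0 by −0.01 (adjusted p = 0.99).

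The difference after IR was larger in cKO than in WT for 71 of 76 members, all but Rpl21, Rpl38, Rps10, Rps2 and Rps27. The test of that difference itself, the interaction, called no member, beside 0.295% of tested genes in the positive and 0.583% in the negative direction. The median interaction was 0.28, beside 0.03 for all tested genes, of which 54.8% were positive. An unadjusted p under 0.05 was found for 23 members and for 14.6% of tested genes. The smallest adjusted p was that of Rpl23a, which had 78.6, 86.9 and 85.9 FPKM in WT sham and 76.7, 67.2 and 76.8 in cKO sham. Its interaction was 0.60 (SE 0.12, adjusted p = 0.0539), and voom on recovered reads called it and no other member, beside 0.272% of tested genes in the positive and 0.746% in the negative direction. Rpsa (0.46, SE 0.11, adjusted p = 0.0908) and Rpl13 (0.39, SE 0.11, adjusted p = 0.115) followed. The interaction uses the same libraries as the genotype comparisons, so their values are not separate evidence.

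Other genes of the translation apparatus were taken from 6 lists. Ribosome biogenesis genes, which make and assemble the subunits, also rose for the most part. In WT 48 of 56 (85.7%) were higher and none lower, with a median of 0.60. In cKO 51 (91.1%) rose and 1 fell, with a median of 0.84. Of all tested genes, 22.6% rose and 19.5% fell in WT, and 27.8% and 23.1% in cKO. Nop56, a core protein of box C/D snoRNPs, went from 3.90 ± 0.846 to 14.1 ± 2.80 FPKM in WT (1.62, adjusted p = 3.36e-05). Nop2, an rRNA methyltransferase, rose by 1.05 and the importin Ipo4 by 0.91 in WT (adjusted p = 2.27e-05 and 1.63e-05). In cKO, Eif6, which keeps the large subunit from joining early, rose by 2.05 (adjusted p = 5.36e-06), and the box C/D methyltransferase Fbl by 1.12 (adjusted p = 1.35e-05).

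This list held the only companion genes called between genotypes in sham kidney. Rrs1, which helps to bring 5S ribosomal RNA into the large subunit, had 20.5 ± 0.753 FPKM in WT sham and 13.2 ± 1.71 in cKO sham (−0.60, adjusted p = 0.00709). Noc4l, a factor of small subunit assembly, was higher in cKO sham (0.50, adjusted p = 0.0442). The interaction called Rrs1 (0.83, SE 0.12, adjusted p = 0.0124), whose IR means were 18.5 ± 0.384 FPKM in WT and 21.9 ± 0.963 in cKO (SD, n = 3).

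The genes listed as translation factors and other TOP messages followed with 24 of 33 tested (72.7%) higher and 2 lower in WT (median 0.43). A TOP sequence at the start was not required for this list. In cKO 28 (84.8%) were higher and none lower (median 0.60). Of all tested genes, 22.6% were higher in WT and 27.8% in cKO. The elongation factor subunit Eef1g rose from 75.2 ± 3.35 to 138 ± 11.5 FPKM in WT (0.86, adjusted p = 4.52e-05) and by 1.15 in cKO (adjusted p = 4.52e-06). Eif4a1, the helicase of the initiation complex, rose by 0.94 and 1.22 (adjusted p = 8.26e-05 and 1.03e-05). Of the snoRNA host genes outside the family, 4 of 8 tested (50.0%) rose in WT (median 0.39) and 5 (62.5%) in cKO (median 0.72), beside the same 22.6% and 27.8%. Gas5 was among them, with 0.58 in WT and 1.04 in cKO (adjusted p = 0.0264 and 0.000908).

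Of the paralogs and fusion genes outside the symbol rule, 3 of 8 tested (37.5%) rose in WT (median 0.28), beside 22.6% of all tested genes. In cKO 5 (62.5%) rose (median 0.41), beside 27.8%, and none was lower in either genotype. Rpl22l1, the paralog of Rpl22, rose by 0.62 and 0.85 (adjusted p = 0.00172 and 0.000163). Mitochondrial ribosomal proteins, which build a separate ribosome, gave 13 of 77 tested genes (16.9%) higher and 2 lower in WT, beside 22.6% of all tested genes higher, with a median of 0.03 beside 0.01. In cKO 22 (28.6%) rose and 1 fell, beside 27.8% of all tested genes higher, with a median of 0.13 beside 0.02. Mrpl52 rose by 0.98 and 1.04 (adjusted p = 0.000789 and 0.000315) and Mrpl33 by 1.04 and 1.41 (adjusted p = 0.000422 and 3.48e-05).

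**Figure D5:**
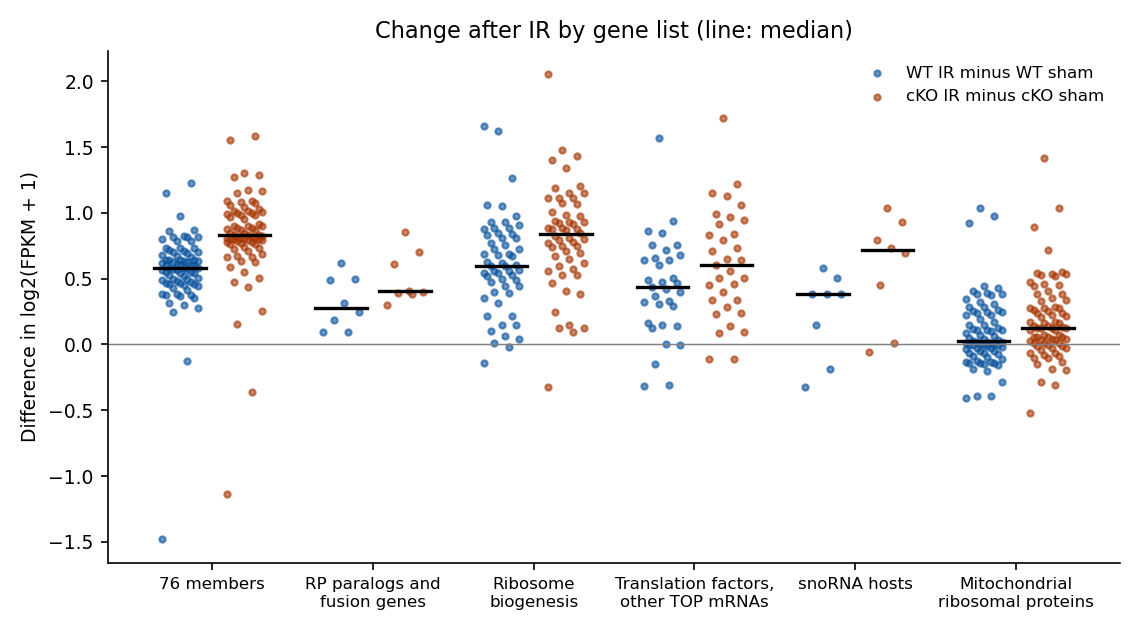
Difference in log2(FPKM + 1) between IR and sham, 1 point per tested gene, by list and genotype, with the median as a line. The 76 members and the ribosome biogenesis genes have medians of 0.58 and 0.60 in WT and 0.83 and 0.84 in cKO, and the mitochondrial ribosomal proteins 0.03 and 0.13.

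Among regulators of ribosomal protein synthesis and of the link from 5S ribosomal RNA to p53, 8 of 28 tested (28.6%) rose and 5 (17.9%) fell in WT, beside 22.6% and 19.5% of all tested genes. In cKO 14 (50.0%) rose and 6 (21.4%) fell, beside 27.8% and 23.1%. The list did not move one way, and its genes are given singly. Myc, a transcription factor that drives ribosome production, went from 2.61 ± 0.940 to 19.1 ± 6.39 FPKM in WT and from 1.53 ± 0.377 to 32.1 ± 4.65 FPKM in cKO (SD, n = 3). Its differences were 2.46 (adjusted p = 8.16e-05) and 3.71 (adjusted p = 4.4e-06), and their difference of 1.26 did not pass (SE 0.36, adjusted p = 0.138). Atf4, a stress transcription factor, rose by 0.91 and 0.86 (adjusted p = 1.74e-05 and 1.11e-05), and Trp53, which encodes p53, by 1.10 in WT (adjusted p = 0.000106). Eif4ebp1, an inhibitor of cap-dependent initiation, rose by 2.70 in cKO (adjusted p = 1.37e-05). Mtor, mentioned after its values were seen, fell by 0.85 in WT and by 1.07 in cKO on the log2 scale (adjusted p = 0.00221 and 0.000379).

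Markers of cell types and injury moved with IR as well. Of 7 proximal tubule markers, 6 fell in each genotype, and their summed FPKM was 6551 to 15513 in WT IR, and in cKO 17497 to 24727 after sham and 8782 to 11460 after IR. Of 3 markers of the thick ascending limb and distal tubule, 2 fell in WT and 3 in cKO. Of 5 tubular injury markers, 5 rose in WT and 4 in cKO, from sums of 57.7 to 65.2 FPKM over the sham libraries of both genotypes to 764 to 1217 in WT IR and 1498 to 1704 in cKO IR. Neutrophil markers rose for 3 of 4 tested in WT and 4 in cKO, with sums of 1.74 to 2.48 FPKM in WT sham against 10.8 to 52.0 in WT IR, and 2.59 to 3.08 in cKO sham against 17.7 to 26.1 in cKO IR.

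Macrophage markers did not move one way, with 1 of 5 higher and 1 lower in each genotype, and 1 of 4 endothelial markers fell in each. Red cell and reticulocyte markers fell for 6 of 6 in WT, from 290 to 914 FPKM in sham to 49.9 to 231 in IR, and for 1 in cKO, with 205 to 278 in sham and 65.2 to 224 in IR. Markers of T, NK, B and plasma cells summed to 18 to 31.0 FPKM in WT sham and 4.07 to 10.6 in WT IR, while the cKO sums were 1.85 to 4.65 after sham and 4.78 to 7.81 after IR. The 1 tested marker of that list was called in 4 comparisons: lower after IR in WT, higher after IR in cKO, lower in cKO sham than in WT sham, and positive in the interaction. The part of these cell and injury markers in the differences of the ribosomal protein genes was not tested.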

How the data were processed

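The authors deposited 1 FPKM table with a column per library. The submitters' processing notes name HISAT2 2.2.1 and, as builds, mm8 and mm9. How reads were counted, by strand or not, and the annotation were not given in the sources used here. Values times gene length were whole multiples of 1 step per library to within 5.63e-08 of a read, which gave the reads. Genes averaging 1 FPKM or more were fitted as log2(FPKM + 1), which understates changes of low genes, in limma 3.58.1 (R 4.3.3) with 1 mean per group over 12 libraries and a trend in mean expression. Tests were two-sided, Benjamini-Hochberg adjusted over 12868 genes and called under 0.05; the procedure was tested on simulated data.

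Members and lists were chosen with earlier results of these data known. Genes named were a panel of 16 members, the 4 called members with the largest difference in each direction (or the 3 smallest p), up to 3 per direction after centring, the 5 highest and lowest, and 3 per list. Alternatives covered pseudocount, filter, scaling, centring, pseudogene reads, a replicate block and leaving out each library. Limma voom on recovered reads was added after seeing the data. Single values of a few genes that this rule names are not reported here.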

Additional observations from a re-analysis of the deposited data

How the results depend on the processing

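The number of members higher after IR was 57 to 68 in WT and 65 to 71 in cKO across a pseudocount of 0.1, no filter, plain totals, TMM library sizes, totals without mitochondrial genes, pseudogene reads added, and voom. Leaving out 1 library at a time gave 54 to 67 with a median of 0.52 to 0.65 in WT, and 64 to 70 with a median of 0.75 to 0.89 in cKO. The count lower in WT was 0 to 1 (Rpl35a, without cKO IR replicate 3) and in cKO 0. Medians for cKO against WT were −0.15 to −0.01 in sham, 0.13 to 0.25 after IR and 0.19 to 0.33 for the interaction, with 0 members called each time. Plain totals moved the WT median to 0.73. Voom called 1 member higher in the interaction. Of 2016 alternative values of named members, 1913 kept direction and side of the threshold, 45 lost and 8 gained the call, 39 changed sign while uncalled, and 11 reversed, all 11 under centring.

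Centring on the member median removes the shared change by construction. It left 4 members higher and 1 lower in WT (median 0.0436) and 8 higher and 3 lower in cKO (median 0.00358), with medians of 0.00402 for cKO IR against WT IR and −0.00588 for the interaction. In WT it turned Rpl5 to −0.0433, Rpl10 to −0.0805, Rpl11 to −0.16, Rpl22 to −0.24, Rps3 to −0.0400 and Rps19 to −0.0681. In cKO it turned Rpl3 to −0.0257, Rpl10 to −0.0350, Rpl11 to −0.0883, Rpl22 to −0.35 and Rps10 to −0.67.

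Without mitochondrial genes in the total, the members' read share was 1.22% in WT sham, 1.14% in cKO sham and 2.19% in cKO IR. With pseudogene rows it was 1.11% in cKO sham, and the large to small ratio was 1.45 in WT sham and 1.48 in WT IR. A replicate block, for numbers that the labels do not tie to a shared animal or day, gave 59 higher in WT, 67 in cKO and 0 elsewhere. Between libraries of different groups, deviations from the group mean over all tested genes were correlated. The range was −0.19 to 0.40 over 18 same-numbered pairs and −0.33 to 0.26 over 36 pairs with different numbers. The planned negative binomial count test was not run, since the table holds FPKM. Depth limits Rps10 most among the members, with 18 to 56 reads a library.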
